A study of Xenopus tropicalis with 15 samples.

Results

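The comparison set regenerating tail tissue of Xenopus tropicalis tadpoles 1 day after amputation, kept in the solvent DMSO, against tail tissue taken at the time of the cut. Its members were chosen by the titles of the samples and are 6 of the 15 libraries of the series, 3 from the 0 hpa group and 3 from the DMSO group at 24 hpa (hours post amputation). All tadpoles were wild-type and lost the posterior 1/3 of the tail at Nieuwkoop and Faber (NF) stage 41, 3 days after fertilisation. The 0 hpa group was untreated tissue reaching about 250 µm forward of the cut, and the 24 hpa group was about 250 µm of regenerating tissue from tadpoles reared at 23 °C in 1/9 Modified Ringers with 0.1% DMSO. Time, position along the tail and DMSO therefore differed together between the groups and cannot be told apart. Time here includes both the response to the cut and 1 day of larval development. No group of the series was of uncut tails at the later age, so these cannot be told apart either. The other 9 libraries, of tadpoles kept at 24 hpa in 2-methoxyestradiol (2ME), echinomycin or IWR-1, served to estimate the spread between replicates. Total RNA was sequenced as read pairs, and the labels leave unsaid whether replicates were separate clutches or pools, so the p-values speak only of the variation among these libraries.

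An amputated Xenopus tadpole tail is first covered by a wound epidermis, a sheet of epidermal cells that migrates over the cut and loosens its hold on the basement membrane. Myeloid cells enter the stump, reactive oxygen species are made at the wound, and progenitors of the spinal cord, notochord, muscle and fin later proliferate behind that epidermis. Bone morphogenetic protein (BMP), Notch, Wnt, fibroblast growth factor (FGF), transforming growth factor beta (TGF-beta) and Hedgehog signals are each known to be needed for regeneration of the Xenopus tail.

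Totals of estimated counts in the 6 libraries ranged from 17.3 to 23.4 in units of 1000000 counts. A count of 0 allowed up to 0.128 to 0.173 counts per 1000000 counts of the library (CPM). These limits are for counting error alone, take 3 counts as the limit and are relative to the unscaled library totals. The CPM of genes below are relative to scaled totals, on which the limits are somewhat higher. Of 18823 gene models with enough counts, 63.0% passed the test at 24 hpa against 0 hpa (edgeR quasi-likelihood test, Benjamini-Hochberg adjusted p under 0.05), 32.2% higher and 30.8% lower. Values after "rose by" are on the log2 scale. Models called higher with an estimated ratio of 2-fold or more made up 8.77%, and those called lower by as much 14.5%. The test was against no change, not against 2-fold. In 66.8% of models the groups did not overlap. The median log2 ratio of all models was 0.0013. These shares are the background for every gene group below, in which "rose" and "fell" are used only of models that passed the test. Log2 ratios of 24 hpa over 0 hpa are given ± SE. The SE was back-calculated as the absolute log2 ratio divided by the square root of the F statistic of the test. It is approximate, above all for genes with few counts in 1 group. CPM are given as the values of replicates 1, 2 and 3 or as mean ± SD, and n is 3 per group throughout. The summed level of 6 muscle markers was 12558 to 14127 CPM at 0 hpa and 984 to 1281 CPM at 24 hpa, that of 5 erythroid markers 409 to 1462 CPM at 0 hpa and 29.3 to 32.9 CPM at 24 hpa, that of 5 endothelial markers 89.1 to 91.3 CPM at 0 hpa and 30.5 to 37 CPM at 24 hpa and that of the 4 myeloid markers found 42.8 to 51.7 CPM at 0 hpa and 164 to 183 CPM at 24 hpa. In bulk tissue such as this, fewer cells of a type and less RNA per cell cannot be told apart. The 0 hpa replicate 1 library stood apart in its red cell genes, with 107 CPM of the red cell membrane gene epb42 against 29.3 and 35 CPM in the other 0 hpa libraries. Without that library 11265 models passed the test, 5580 higher and 5685 lower, against 11854, 6056 and 5798 with it.

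The transcripts that gained most CPM included those of a keratin, a provisional matrix protein, an iron store and a growth factor. The keratin gene krt12.2 had 336, 321 and 375 CPM at 0 hpa and 12363, 14369.6 and 12591 CPM at 24 hpa. It rose by 5.25 ± 0.18 on the log2 scale, and per length it moved from position 458 among the tested models, with 264 transcripts per 1000000 transcripts (TPM), to position 5 with 9567 TPM. Every 24 hpa library lay far above every 0 hpa library. Fibronectin fn1, a matrix glycoprotein that migrating epidermis crawls on, had 297, 362 and 312 CPM at 0 hpa and 6154, 5352 and 4664 CPM at 24 hpa (log2 ratio 4.06 ± 0.12). Midkine mdk, a heparin-binding growth factor, had 648, 614 and 653 CPM at 0 hpa and 2736, 3231 and 2585 CPM at 24 hpa (2.16 ± 0.08). Frem3, of the Fraser syndrome family of proteins that hold epidermis to the underlying mesenchyme, rose from 184 ± 18.7 to 1097 ± 93.2 CPM (2.58 ± 0.14). The ferritin heavy chain gene fth1.1 rose by 0.70 ± 0.12 from an already high level, at 6890.4 TPM before and 10747 TPM after. Other large gains in CPM were small ratios in abundant transcripts, namely elongation factor eef1a1 (0.36), the cold-inducible RNA-binding protein gene cirbp (0.71), cytoplasmic actin actg1 (0.20) and tpt1, the translationally controlled tumour protein gene (0.47).

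The transcripts that lost most CPM were those of fibrillar collagen, striated muscle and red cells, together with other keratins. Type I collagen chain col1a1 had 17324, 17814 and 17437 CPM at 0 hpa and 9023, 9473 and 10026 CPM at 24 hpa (-0.88 ± 0.06), and its partner col1a2 fell by nearly the same ratio (-0.90 ± 0.064). Myosin heavy chain myh1 fell from 4661 ± 109 to 118 ± 27.4 CPM (-5.30 ± 0.31). The calcium pump of muscle, atp2a1, fell (log2 ratio -3.95 ± 0.2), and periostin postn, a matricellular protein of the fin mesenchyme and periosteum, (-1.96 ± 0.06).

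**Figure D1:**
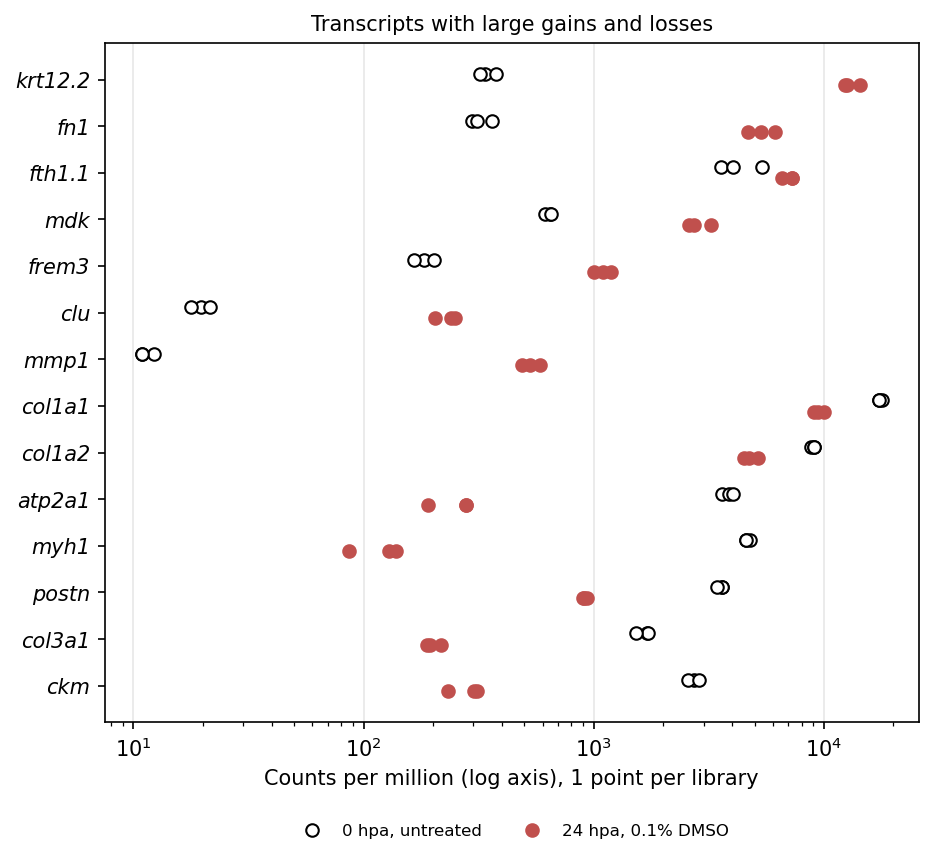
CPM (log axis) of transcripts with large gains or losses in each of the 3 libraries at 0 hpa (open circles) and the 3 libraries at 24 hpa with DMSO (filled circles), with 1 row per gene. The groups are separated in every row, in genes chosen for large changes, and 66.8% of all models did not overlap. Krt12.2 goes from a mean of 344 CPM to a mean of 13108 CPM.

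The keratins did not move as a family. Keratins form the intermediate filaments of epithelia and are often exchanged when an epidermis is wounded. Of 25 tested keratin models 14 rose, 6 fell and 5 did not pass, with a median of 0.67. The simple-epithelium keratins krt18.1 (2.27 ± 0.086), krt8.1 (1.89 ± 0.09) and krt19 (1.57 ± 0.074) rose beside krt12.2. In the opposite direction, krt12.4 had 1343, 1465 and 1656 CPM at 0 hpa and 58.1, 89.3 and 81 CPM at 24 hpa (-4.29 ± 0.17), and krt15.2 had 2454, 2368 and 2481 CPM at 0 hpa and 579, 666 and 786 CPM at 24 hpa (-1.85 ± 0.1). The more abundant krt12.3 fell (log2 ratio -1.26 ± 0.15), from 5615 to 2222 TPM. Krt7 (10627 TPM at 0 hpa and 10175 TPM at 24 hpa) and krt12.5 (9326 and 9039.8 TPM) were abundant per length in both groups. Their log2 ratios were 0.012 ± 0.097 and 0.029 ± 0.083, and they did not pass the test. At 24 hpa krt12.2, with 9567 TPM, lay above krt12.5. Keratin copies of near-identical sequence can exchange reads in the counting, so the value of a single copy is uncertain.

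**Figure D2:**
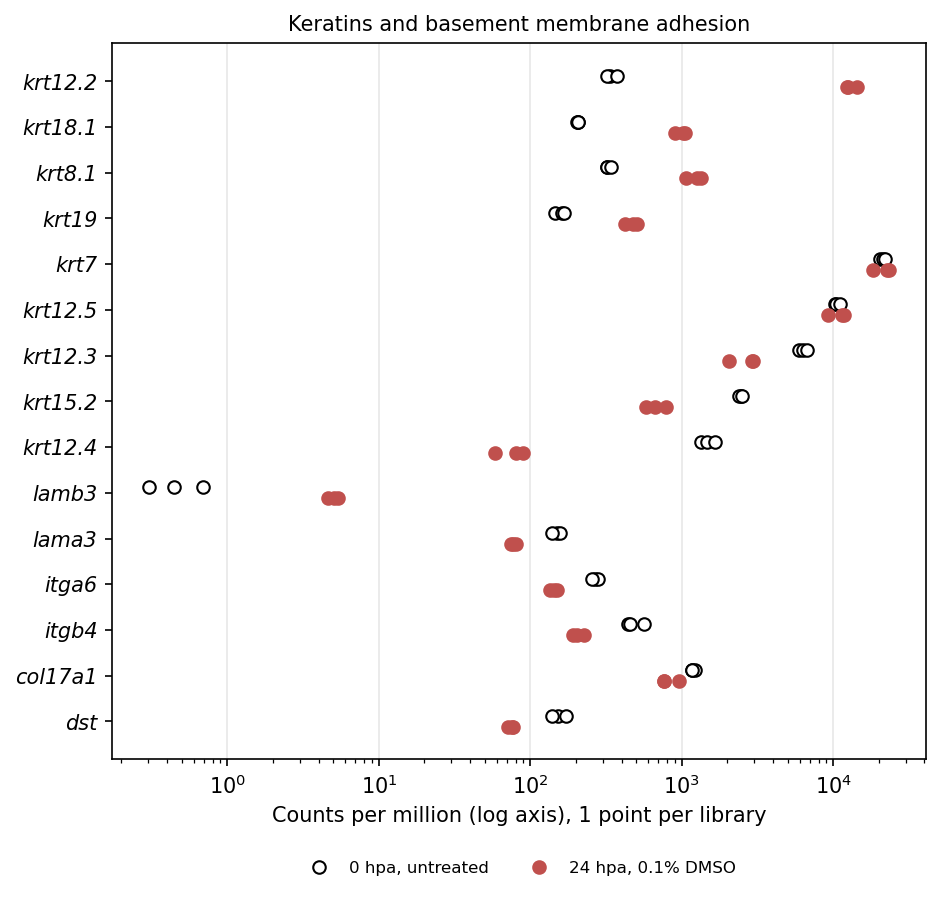
CPM (log axis) of keratin and basement membrane adhesion genes in each library at 0 hpa (open circles) and at 24 hpa with DMSO (filled circles). The krt12.2 and krt12.4 rows cross in opposite directions and krt7 and krt12.5 overlap, while lamb3 lies lower at 0 hpa than at 24 hpa.

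Genes that anchor basal epidermis to its basement membrane were split. The laminin chains lama3 and lamb3 are made by basal epidermis and secreted under it when it migrates. The beta chain lamb3 had 0.445, 0.689 and 0.304 CPM at 0 hpa and 4.61, 5.39 and 5.06 CPM at 24 hpa and rose by 3.35 ± 0.32. The alpha chain lama3 had 151, 156 and 139 CPM at 0 hpa and 77.2, 75 and 80.9 CPM at 24 hpa and fell (log2 ratio -0.94 ± 0.082), and neither gene overlapped between the groups. The hemidesmosome is the rivet that ties keratin filaments to the basement membrane. Its integrin pair itga6 (-0.90 ± 0.08) and itgb4 (-1.23 ± 0.099), its collagen col17a1 (-0.51 ± 0.079) and its linker proteins dst (-1.06 ± 0.087) and plec (-0.63 ± 0.11) fell. In the whole list of desmosome and hemidesmosome genes 5 of 16 rose and 8 fell (median -0.25). The plakophilin gene pkp2 (0.92) and the tetraspan gene perp (0.41), of cell-to-cell desmosomes, were among those that rose, and desmoplakin dsp (-0.60) fell.

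Changes among epithelial barrier genes were mixed in direction. Of 31 claudin and tight junction models 7 rose and 9 fell. These shares, 22.6% and 29.0%, lay below the 32.2% and 30.8% of all models. Of 17 cornified envelope and epidermal cross-linking genes 8 rose and 3 fell (median 0.19, or 0.08 without 24 hpa replicate 3). Claudin cldn6.2 rose from 86.6 ± 2.7 to 256 ± 19.2 CPM (1.56 ± 0.085), cldn6.1 rose by 1.31 ± 0.13, cldn7 by 0.86 and cldn4 by 0.70, while cldn8.2 (-0.88) and cgnl1 (-0.83) fell. The transglutaminase gene tgm5 rose by 2.46 ± 0.2. The epidermal transcription factors grhl1 (0.31), grhl3 (0.30) and ovol2 (0.54) rose, and the transglutaminase tgm2 (-1.38) and the fatty acid elongase elovl4 (-1.30) fell. The sum of 4 epidermal markers was 2364 to 2572 CPM at 0 hpa and 3135 to 3386 CPM at 24 hpa, with 3 higher and 1 lower. The lower marker was itln1, a secreted lectin also in the list of goblet and small secretory cells. Its mean was 993.8 CPM at 0 hpa and 755.5 CPM at 24 hpa. The other 3 markers together therefore gained more CPM than the sum shows. The part of these markers in the rises of epithelial genes was not tested.

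The lists for ionocytes and multiciliated cells of tadpole epidermis held more genes that fell than rose, while the summed levels of a few markers of these cells overlapped between the groups. The sum of 6 models of ionocyte markers was 251 to 271 CPM at 0 hpa and 269 to 279.9 CPM at 24 hpa, with 1 of the 5 tested higher and 3 lower, and that of 5 multiciliated cell markers was 747 to 831 CPM at 0 hpa and 676 to 772 CPM at 24 hpa, with 2 of the 4 tested lower. In the list of ionocyte and proton pump (V-ATPase) genes 26 of 38 fell and 5 rose (median -0.34). Its pump subunit atp6v1a, also among the ionocyte markers summed above, rose from 86.6 ± 9.8 to 144 ± 4.95 CPM (0.73 ± 0.07). The ionocyte transcription factor foxi1 had 46.5, 45.8 and 47.5 CPM at 0 hpa and 27, 16.4 and 21.8 CPM at 24 hpa (-1.11 ± 0.16), and the anion exchanger slc4a9 fell (log2 ratio -1.52 ± 0.16). Carbonic anhydrase ca2 (-2.63 ± 0.2) and the anion exchanger slc4a1 (-4.61 ± 0.38) fell further, and both are also red cell genes. The red cell marker sum given above was also lower at 24 hpa, but slc4a1 is itself among those markers. The part of red cells in the fall of these 2 genes was not tested. Among the proton pump subunits that fell were atp6v1b1 (-0.78 ± 0.066), atp6v1c2 (-1.34 ± 0.09), atp6v1g3 (-0.85 ± 0.1) and atp6v0a4 (-0.96 ± 0.057), while atp6v1c1 (0.36 ± 0.077), atp6v1g1 (0.53 ± 0.075) and atp6v0e1 (0.40 ± 0.079) rose and atp6v0c (0.025 ± 0.074) did not pass. For multiciliated cells 23 of 38 genes fell and 3 rose (median -0.57). The whole list summed to 631 to 688 CPM at 0 hpa and 413 to 459 CPM at 24 hpa, below the 5 markers. The marker sum thus rested in part on genes outside the list. Neither marker sum shows whether such cells kept their number. The axonemal dynein heavy chains dnah9 (-1.18 ± 0.11), dnah10 (-1.35 ± 0.14) and dnah6 (-1.81 ± 0.2) were among those that fell, and the cilia regulator foxj1 fell (log2 ratio -0.65 ± 0.12). Of 17 goblet and small secretory cell genes 5 rose and 6 fell (29.4% and 35.3%, near the 32.2% and 30.8% of all models). The secreted lectins itln1 (-0.40) and itln2 (-0.85) were lower, while the secretory pathway genes agr2 (0.64) and xbp1 (0.42) were higher.

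Proteases that work outside the cell were split by family. Of 24 matrix metalloproteinase and tissue inhibitor (TIMP) models 12 rose, 9 of them by 2-fold or more, and 11 fell. The collagenase mmp1 had 10.9, 12.3 and 10.9 CPM at 0 hpa and 582, 526 and 487 CPM at 24 hpa (5.54 ± 0.17), with the lowest 24 hpa library far above the highest 0 hpa library. The stromal protease mmp11 rose from 21.4 ± 1.36 to 130.2 ± 3.79 CPM (2.60 ± 0.098) and the matrilysin mmp7 from 15.2 ± 2.5 to 92 ± 8.75 CPM (2.60 ± 0.11). Their inhibitors timp2 (-0.65 ± 0.19), timp3 (-1.27 ± 0.2) and reck (-0.75 ± 0.12) fell, as did the membrane-bound mmp17 (-2.03). By contrast 22 of 35 ADAM and ADAMTS protease genes fell and 3 rose (median -0.64). The procollagen peptidase adamts2 fell (log2 ratio -1.87 ± 0.14), adamts7 (-1.42 ± 0.12) and adamts12 (-1.74 ± 0.19), whereas the membrane sheddase adam9 rose by 1.29 ± 0.093. Among serpins, which block serine proteases, serpine2 rose by 3.14 ± 0.12 and the secreted serpinf1 (-2.55 ± 0.091) fell. The tissue plasminogen activator gene plat rose as well (1.59 ± 0.14).

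Most genes for the breakdown of proteins inside the cell were higher. The proteasome is the barrel-shaped protease that degrades ubiquitin-tagged proteins. Of 42 tested subunit models 40 rose (95.2%, against 32.2% of all models) and 2 did not pass, with a median of 0.67. The core particle subunit psma7 had 143, 121 and 134 CPM at 0 hpa and 269.8, 301 and 254 CPM at 24 hpa (1.05 ± 0.069), with no overlap, and the core subunits psmb1 (0.97), psmb3 (0.96) and psma4 (0.96) rose by like amounts. The largest ratios belonged to subunits of the inducible immunoproteasome and its cap. The activator subunit psme2 had 2.29, 1.01 and 1.83 CPM at 0 hpa and 16.5, 14.2 and 15.2 CPM at 24 hpa (3.18 ± 0.21), psme1 rose by 2.13 ± 0.23 and the catalytic subunit psmb8 by 2.80 ± 0.22. Of 45 lysosomal genes 30 rose and 6 fell (median 0.50). The cathepsin ctsb had 178, 166 and 179 CPM at 0 hpa and 500.4, 496 and 478 CPM at 24 hpa (1.50 ± 0.079), ctsc rose by 1.69 ± 0.056, ctss by 1.74 ± 0.095 and the asparagine endopeptidase lgmn by 1.18 ± 0.062, while the lysosome transcription factors tfeb (-0.60 ± 0.12) and mitf (-0.78 ± 0.14) fell. Mitf is also a regulator of pigment cells, and the sum of 4 melanophore markers was 203 to 224 CPM at 0 hpa and 17 to 24.7 CPM at 24 hpa, with all 4 lower. Their part in the fall of mitf was not tested. Of 40 autophagy genes 16 rose and 6 fell (median 0.13), with the cargo receptors sqstm1 (1.49 ± 0.085) and optn (1.28 ± 0.078) among the largest rises and ulk1, the kinase that starts autophagy, at -0.47 ± 0.078. Of the 4 myeloid markers found 3 could be tested and all 3 rose, the sum being higher as given above, and their part in the rise of the lysosomal, immunoproteasome and other defence genes was not tested.

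Translation and RNA-processing genes rose in large numbers by small amounts. Of 52 translation initiation and elongation factors 44 rose and 2 fell (84.6% higher, median 0.44), and 0 of them reached 2-fold. The RNA helicase eif4a1 had 614, 586 and 609.7 CPM at 0 hpa and 1079, 1187 and 1077 CPM at 24 hpa (0.89 ± 0.055), and eif5b rose by 0.95 ± 0.081, eif6 by 0.98 ± 0.053 and the initiation scaffold eif4g2 by 0.80 ± 0.049. Of 23 cytosolic aminoacyl-tRNA synthetase genes, which load tRNAs with amino acids, 15 rose and 1 fell (median 0.26). Valyl-tRNA synthetase vars1 was at 0.85 ± 0.063, and the bifunctional eprs1 fell (log2 ratio -0.26). Of 25 RNA polymerase I and III genes, which make ribosomal and transfer RNA, 19 rose and 2 fell (median 0.40), with polr1e at 1.31 ± 0.093 and polr1a at 0.80 ± 0.077. Mitochondrial ribosomal proteins stood apart from this, with 10 of 73 higher and 23 lower (median -0.03). The number higher was 4 without 0 hpa replicate 2 and 4 without 24 hpa replicate 2.

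The spliceosome list moved almost as one. Of 88 genes of the spliceosome and of splicing factors 77 rose and 1 fell (87.5% higher, median 0.45). The core ring protein snrpg had 77.7, 70.8 and 76.4 CPM at 0 hpa and 146, 175 and 136 CPM at 24 hpa (1.02 ± 0.092). The ring proteins snrpd2 (0.87), snrpe (0.85) and snrpb (0.81), the branch-point factor sf3b5 (0.86) and the helicase ddx46 (0.98) rose too. Hnrnpr was the one member that fell (-0.21 ± 0.066), and between 2 and 3 members fell when 0 hpa replicate 1 or 3 or 24 hpa replicate 2 was left out. Of 53 nuclear pore and transport genes 30 rose and 7 fell (median 0.21), with the guanine exchange factor rcc1 at 0.92 ± 0.08, ranbp1 at 0.69 ± 0.057 and the exporter xpo5 at 0.65 ± 0.098. Of 50 exosome and mRNA decay genes 30 rose and 6 fell (median 0.35). The decay activator zfp36, which binds AU-rich elements of cytokine mRNAs, rose by 1.59 ± 0.088, and the decapping enzyme dcp2 fell (log2 ratio -0.74 ± 0.11).

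Chaperone genes were split. Of 86 chaperone and heat shock genes 37 rose and 23 fell (median 0.16). The subunits of the cytosolic chaperonin that folds actin and tubulin rose, with tcp1 at 0.88 ± 0.049, cct3 at 1.11 ± 0.069 and cct7 at 0.81 ± 0.055, as did hsph1 (1.29 ± 0.076). The myosin chaperone unc45b (-3.24 ± 0.23) and the small heat shock genes hspb1 (-3.18 ± 0.19) and hspb8 (-3.34 ± 0.15), abundant in muscle, fell, beside the lower muscle marker sums given above. For the endoplasmic reticulum 23 of 50 genes rose and 6 fell (median 0.10, and 10 fell without 24 hpa replicate 3). The signal peptidase subunits sec11c (0.94 ± 0.064) and sec11a (0.60 ± 0.078) rose, and the collagen-modifying p4hb (-0.35 ± 0.055) fell. Of 34 genes of the COPII and COPI vesicle coats 8 rose and 7 fell (median 0.034), and both shares lay below those of all models. In the COPII coat, which carries cargo out of the endoplasmic reticulum, sec31b (0.69 ± 0.051) and sar1b (0.66 ± 0.13) rose, and sec23a (-1.47 ± 0.07) and sec24d (-1.20 ± 0.072), both known to be needed for collagen export in fish and mammals, fell.

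**Figure D3:**
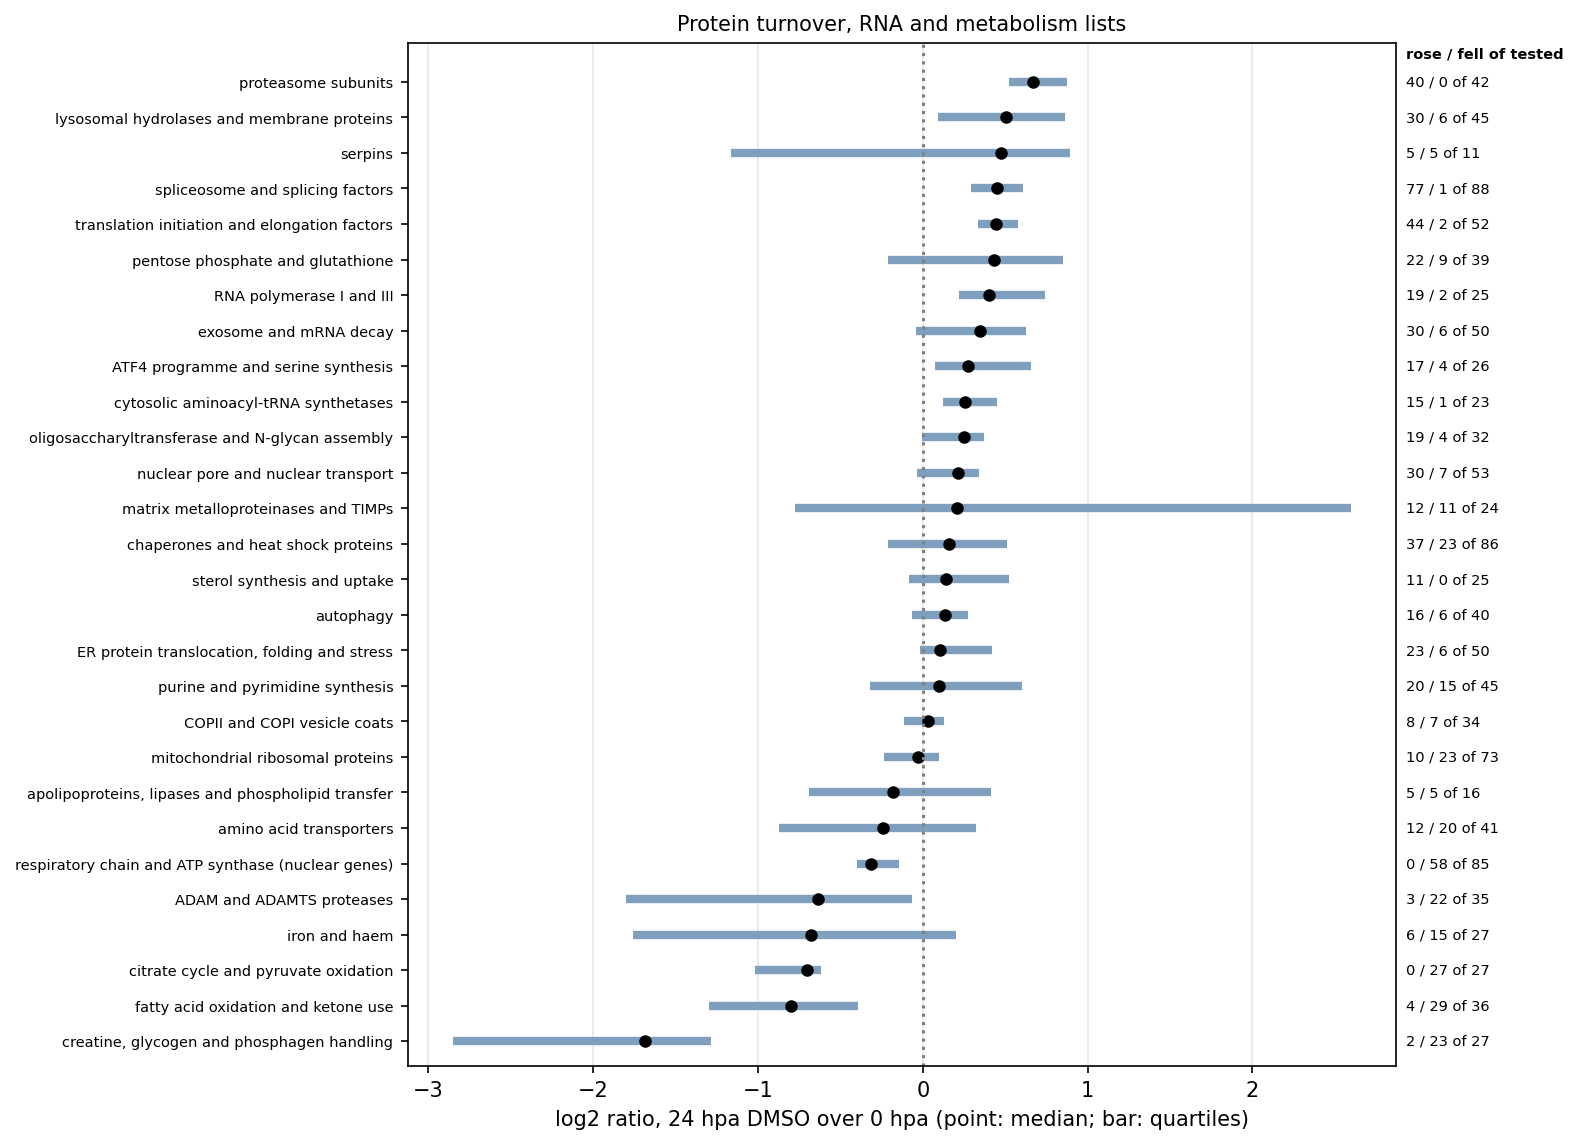
Median log2 ratio (24 hpa over 0 hpa) of the tested members of each list of protein turnover, RNA and metabolism genes (points) with the lower and upper quartile (bars), and the numbers of members that rose and fell at the right. The dotted line marks the median of all models. The proteasome, spliceosome and translation lists lie to the right of it with both quartiles, and the citrate cycle and creatine lists to the left.

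Energy metabolism genes fell across pathways. The citrate cycle list moved as a whole, since 27 of its 27 models fell, against 30.8% of all models, with a median of -0.71. Isocitrate dehydrogenase idh2 had 1117, 1076 and 1214 CPM at 0 hpa and 586, 582 and 518 CPM at 24 hpa (-1.02 ± 0.066), with no overlap between the groups. The cytosolic aspartate aminotransferase got1 fell (log2 ratio -2.20 ± 0.075) and the pyruvate dehydrogenase kinase pdk1 (-1.69 ± 0.1). Nuclear genes of the respiratory chain and ATP synthase fell by less, 58 of 85 lower and the other 27 not passing the test (median -0.31), and 0 of them reached 2-fold. The ATP synthase subunit atp5f1b fell from 2539 ± 132 to 1574 ± 62.4 CPM (-0.69 ± 0.054) and the complex I subunit ndufs1 (-0.74 ± 0.051). Of 36 genes of fatty acid oxidation and ketone use 29 fell and 4 rose (median -0.80, and 2 rose without 24 hpa replicate 1). The coactivator of mitochondrial genes ppargc1a had 70.2, 73.7 and 78.3 CPM at 0 hpa and 10.4, 9.24 and 7.48 CPM at 24 hpa (-3.04 ± 0.15), and the carnitine palmitoyltransferases cpt1b (-2.46 ± 0.14) and cpt1a (-2.05 ± 0.18) fell with it. Against that trend the fatty acid binding protein fabp4 rose by 1.54 ± 0.097.

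Creatine, glycogen and phosphagen genes fell most among the metabolic lists, with 23 of 27 lower, 21 of them by 2-fold or more, and 2 higher (median -1.69). Creatine kinase ckm fell from 2723 ± 157 to 283 ± 42.5 CPM (-3.27 ± 0.16), the brain-type gene ckb (-3.27 ± 0.11) and the glycogen phosphorylases pygm (-2.83 ± 0.15) and pygb (-4.07 ± 0.22). The liver-type phosphorylase pygl rose by 0.60 ± 0.097. Muscle is rich in mitochondria, glycogen and creatine kinase. The muscle marker sum was 12558 to 14127 CPM at 0 hpa and 984 to 1281 CPM at 24 hpa. That sum includes ckm itself, so it is not independent of the creatine list. The part of muscle RNA in the fall of these lists was not tested.

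Reducing power and nucleotide synthesis showed another picture. Of 39 pentose phosphate and glutathione genes 22 rose and 9 fell (median 0.43). Thioredoxin txn had 7.19, 5.99 and 8.28 CPM at 0 hpa and 96.4, 96.8 and 55 CPM at 24 hpa (3.54 ± 0.3), so 24 hpa replicate 3 lay below the others but well above every 0 hpa library. The enzymes of the pentose phosphate branch tkt (1.66 ± 0.079), pgls (1.25 ± 0.079) and taldo1 (1.18 ± 0.07) and the glutathione reductase gsr (1.00 ± 0.058) rose. The peroxiredoxin prdx2, also a red cell gene, fell (log2 ratio -2.21 ± 0.3). Of 45 purine and pyrimidine synthesis genes 20 rose and 15 fell (median 0.10). Enzymes of synthesis from small precursors rose, with atic at 2.28 ± 0.094, pfas at 1.50 ± 0.11, gart at 0.70 ± 0.084, umps at 1.38 ± 0.075 and cad at 1.12 ± 0.084. Some genes of salvage and of deoxynucleotide supply fell, among them dck.1 (-0.91 ± 0.14), pnp (-1.07 ± 0.059) and the ribonucleotide reductase gene rrm2.2 (-0.70 ± 0.17), and so did the muscle form of adenylosuccinate synthase, adssl1 (-2.96 ± 0.2).

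Sterol, iron and lipid transport genes changed in part. Of 25 genes of sterol synthesis and uptake 11 rose and 14 did not pass (median 0.14), with dhcr7 at 1.07 ± 0.12 and fdps at 0.77 ± 0.1. Of 27 iron and haem genes 15 fell and 6 rose, with a median of -0.68 that moved to -0.26 without 0 hpa replicate 1, the library with the most red cell transcript. The haem synthesis genes alas2 (-4.78 ± 0.45), fech (-3.21 ± 0.27) and cpox (-1.91 ± 0.28) fell beside the red cell markers, and alas2 is itself among those markers. Haem oxygenase hmox1 rose by 1.65 ± 0.097. The secreted chaperone clusterin, clu, had 19.6, 17.9 and 21.5 CPM at 0 hpa and 240.5, 248 and 204 CPM at 24 hpa (3.56 ± 0.093), with the groups far apart. The phospholipid transfer protein pltp rose by 1.11 ± 0.087 and lipoprotein lipase lpl fell (log2 ratio -1.27 ± 0.076). The apolipoprotein gene apoe fell from 5996 ± 184 to 3764 ± 241 CPM (-0.67 ± 0.079).

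Among secreted signals, those of the BMP and activin branches held members that rose and members that fell. The activin subunit inhba had 3.94, 5.57 and 4.32 CPM at 0 hpa and 71, 72.4 and 65 CPM at 24 hpa, with no overlap, and rose by 3.90 ± 0.14. Of 30 BMP pathway models 14 rose and 11 fell (median 0.27, or 0.18 and 0.18 without 0 hpa replicate 1 or 3). The signal transducer smad9 had 32.5, 35.7 and 31.2 CPM at 0 hpa and 193, 183 and 205 CPM at 24 hpa (2.55 ± 0.068). The ligands bmp2 (0.72 ± 0.077) and bmp5 (1.35 ± 0.2) and the target genes id2 (1.07 ± 0.081) and msx2 (0.69 ± 0.06) rose, and bmp4 fell (log2 ratio -0.25). The secreted antagonists chrd.1, grem1, fst and nog all fell. Chordin chrd.1 had 12.3, 13.2 and 16.7 CPM at 0 hpa and 1.01, 1.4 and 1.3 CPM at 24 hpa (-3.49 ± 0.22), and gremlin grem1 had 36.7, 43.6 and 44.9 CPM at 0 hpa and 9.61, 9.72 and 9.23 CPM at 24 hpa (-2.13 ± 0.12). Follistatin fst fell (log2 ratio -1.18 ± 0.11) and noggin nog (-0.98 ± 0.15). The membrane decoy receptor bambi went the other way, with 64.1, 70.1 and 77.2 CPM at 0 hpa and 302, 296 and 276 CPM at 24 hpa (2.05 ± 0.084). Of 23 TGF-beta and activin genes 9 rose and 7 fell (39.1% and 30.4%, against 32.2% and 30.8% of all models). The Smad repressor ski was at 1.88 ± 0.08, the receptor acvr1 at 1.16 ± 0.058, tgfb1 at 0.24 ± 0.057 and the co-receptor tgfbr3 at -1.92 ± 0.14.

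**Figure D4:**
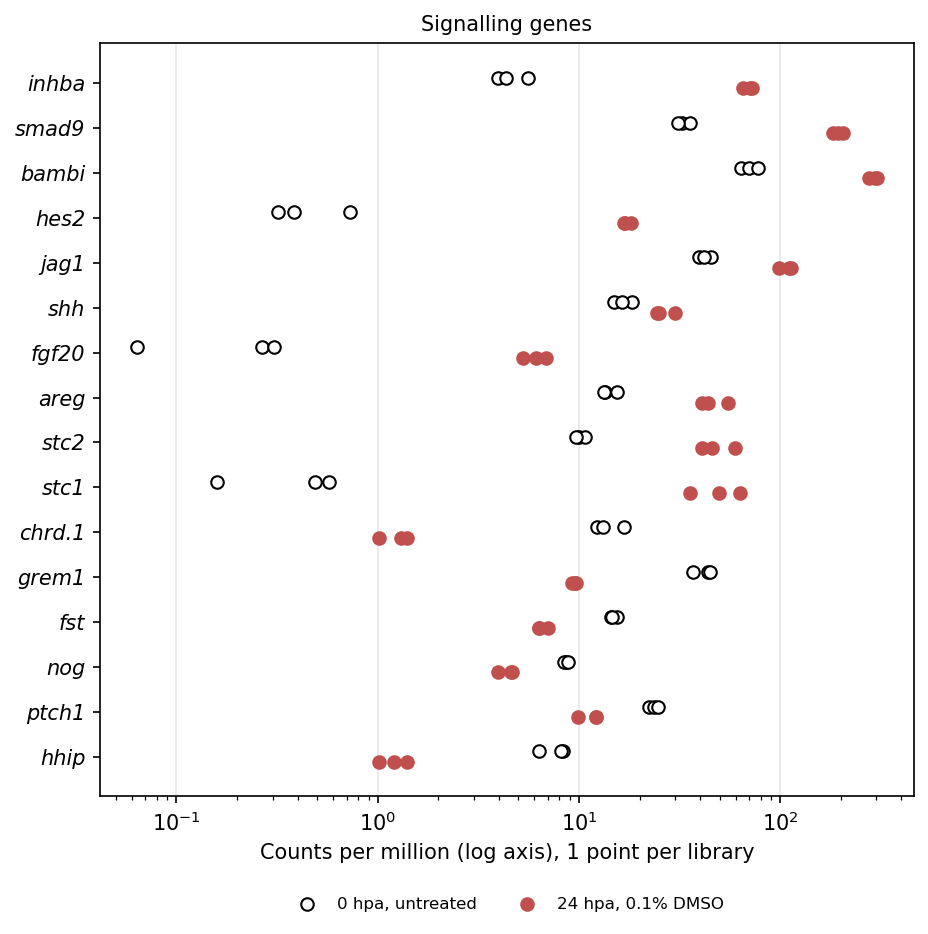
CPM (log axis) of signalling genes in each library at 0 hpa (open circles) and at 24 hpa with DMSO (filled circles). The rows from inhba to stc1 lie higher at 24 hpa, and the antagonists chrd.1, grem1, fst and nog and the Hedgehog genes ptch1 and hhip lie lower. No row overlaps, but only genes that passed the test are drawn, and 66.8% of all models did not overlap.

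Most Hedgehog genes were lower, and a ligand was higher. In this pathway shh binds the receptor ptch1, whose own transcription is a readout of the signal. Sonic hedgehog shh had 18.3, 14.8 and 16.4 CPM at 0 hpa and 29.9, 24.4 and 25 CPM at 24 hpa (0.68 ± 0.11), which was the one member of 23 that rose. A further 14 fell (median -0.81). The receptor ptch1 had 22.2, 23.6 and 24.8 CPM at 0 hpa and 12.1, 12.1 and 9.9 CPM at 24 hpa (-1.05 ± 0.13), the binding protein hhip fell (log2 ratio -2.65 ± 0.24), the co-receptor cdon (-1.48 ± 0.08), gli3 (-1.19 ± 0.11) and nkx3-2, a target in the sclerotome, (-3.93 ± 0.36). The activator gli1 (-0.31 ± 0.18) and the transducer smo (0.093 ± 0.071) did not pass.

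Notch, retinoic acid and growth factor lists held members that rose and members that fell. Of 34 Notch pathway models 12 rose and 15 fell (35.3% and 44.1%, against 32.2% and 30.8% of all models), with a median of -0.11. The effector hes2 had 0.382, 0.318 and 0.73 CPM at 0 hpa and 18.1, 16.7 and 17 CPM at 24 hpa (5.18 ± 0.25). Hes1 (1.36 ± 0.1), the ligand jag1 (1.35 ± 0.075) and the transcription factor rbpj (0.65 ± 0.067) rose, while the ligands dlc (-3.44 ± 0.3) and dll1 (-1.60 ± 0.17), the receptors notch1 (-0.95 ± 0.1) and notch3 (-0.89 ± 0.071) and the modulator dtx1 (-3.43 ± 0.27) fell. Of 23 retinoic acid genes 7 rose and 7 fell (median -0.10), and 4 fell when 0 hpa replicate 1 or 2 or 24 hpa replicate 2 or 3 was left out. The shares higher and lower in this list, 30.4% each, lay near the 32.2% and 30.8% of all models. The synthesis enzyme aldh1a3 rose by 2.79 ± 0.3 and the degrading enzyme cyp26c1 from 62.2 ± 2.98 to 232 ± 19.9 CPM (1.90 ± 0.15), while the binding protein crabp2 fell (log2 ratio -2.19 ± 0.17).

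Of 24 genes of the EGF family and its receptors 10 rose and 8 fell (median -0.078). The quartiles of this list, -0.494 and 0.475, lay near those of all models, -0.565 and 0.445. The ligand amphiregulin, areg, had 13.5, 13.3 and 15.5 CPM at 0 hpa and 40.9, 55 and 43.9 CPM at 24 hpa (1.73 ± 0.14), and the feedback phosphatase dusp5 rose by 2.11 ± 0.21. The ligand hbegf (-0.76 ± 0.11), the receptor egfr (-0.46 ± 0.11) and the negative regulator lrig1 (-1.39 ± 0.12) fell. In the insulin and insulin-like growth factor list 9 of 20 rose and 6 fell (median 0.20). The receptor igf1r (1.02 ± 0.063), the ligand igf2 (0.92 ± 0.12) and the adaptor irs4 (1.50 ± 0.072) were higher, and the ligand igf3 (-3.09 ± 0.23) and the binding protein protease pappa (-1.72 ± 0.14) were lower. The stanniocalcins stc1 and stc2, secreted glycoproteins first known for calcium regulation in fish, rose strongly. Stc1 had 0.573, 0.159 and 0.487 CPM at 0 hpa and 63.4, 49.6 and 35.6 CPM at 24 hpa (6.95 ± 0.31), and stc2 rose by 2.27 ± 0.21.

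Among the largest rises were 3 more genes with known roles in calcium or mineral biology. They were picked from those rises by role, and no list of such genes was counted. Parathyroid hormone-like hormone, pthlh, had 0.0636, 0.159 and 0.243 CPM at 0 hpa and 14.6, 17.1 and 10.9 CPM at 24 hpa (6.44 ± 0.49). Gcm2, the transcription factor of the parathyroid gland in mammals and of gills in fish, had 0.254, 0.265 and 0.487 CPM at 0 hpa and 15, 17.8 and 16.5 CPM at 24 hpa (5.60 ± 0.29). The calcification inhibitor mgp, matrix Gla protein, had 0.448, 0.587 and 0.731 CPM at 0 hpa and 28.9, 32.8 and 31.2 CPM at 24 hpa (5.71 ± 0.3). In each of the 3 the highest 0 hpa library stayed under 1 CPM and the lowest 24 hpa library was above 10 CPM. The fucosyltransferase fut6 (5.72 ± 0.24) and the notochord homeobox gene not (6.35 ± 0.34) rose by similar ratios.

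The list of fin edge and organising-cell signals, named for work on Xenopus laevis tails, had 16 of 24 members higher and 4 lower (median 0.67). The growth factor fgf20 had 0.0636, 0.265 and 0.304 CPM at 0 hpa and 6.12, 6.83 and 5.24 CPM at 24 hpa (4.78 ± 0.43). The lysophosphatidic acid receptor lpar3 (2.06 ± 0.14), the zinc finger gene sp9 (1.46 ± 0.16) of limb and fin ridges and wnt5a (1.04 ± 0.099) rose. The adhesion gene egfl6 (-0.69 ± 0.067) fell.

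Guidance and Hippo pathway genes fell more often than they rose. Of 62 semaphorin, ephrin, netrin and slit pathway genes 31 fell and 14 rose (median -0.37). The receptors ephb3 (1.43 ± 0.062), unc5b (0.91 ± 0.093) and plxnb1 (0.90 ± 0.12) rose, and the ligands sema3d (-1.81 ± 0.085) and sema3e (-1.81 ± 0.13) and the receptors plxnd1 (-1.64 ± 0.12) and epha3 (-3.11 ± 0.27) fell. Of 26 Hippo pathway genes 12 fell and 7 rose (median -0.16). The coactivators yap1 (-0.88 ± 0.21) and wwtr1 (-0.89 ± 0.21) and their known targets ccn1 (-1.21 ± 0.1) and ccn2 (from 125 ± 2.93 to 62.7 ± 3.74 CPM) fell, as did the giant cadherins fat4 (-3.57 ± 0.25) and dchs1 (-1.91 ± 0.27), while vgll4, which competes with yap1 for its partners, rose by 0.83 ± 0.048. Vgll2, a muscle cofactor, fell (log2 ratio -4.82 ± 0.31).

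Matrix genes fell more often than they rose, while a few components of wound matrix rose. Of 36 collagen chain models 32 fell (88.9%, against 30.8% of all models) and 3 rose, with a median of -1.27. The type III chain col3a1 had 1712, 1723 and 1529 CPM at 0 hpa and 217, 188 and 195 CPM at 24 hpa (-3.05 ± 0.12). The basement membrane chains col4a1 (-2.70 ± 0.19) and col4a2 (-2.83 ± 0.19) and the microfibril chains col6a1 (-1.73 ± 0.072), col6a2 (-2.38 ± 0.091) and col6a3 (-2.48 ± 0.24) fell, and col27a1 rose by 0.69 ± 0.1. Of 30 matricellular and provisional matrix genes 22 fell and 6 rose (median -0.97). Thrombospondin thbs1 rose by 0.81 ± 0.053 beside fn1, whereas thbs4 (-3.57 ± 0.17), matn4 (-3.40 ± 0.2) and emilin2 (-1.25 ± 0.11) fell. Of 57 laminin, nidogen and integrin genes 31 fell and 16 rose (median -0.24, or -0.40 without 0 hpa replicate 1). The fibronectin receptor subunit itga5 rose by 0.91 ± 0.11, and the muscle laminin lama2 (-3.24 ± 0.17), its receptor subunit itga7 (-3.42 ± 0.16) and the nidogen nid1 (-2.25 ± 0.16) fell.

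Among proteoglycan and hyaluronan genes 17 of 35 fell and 9 rose (median -0.19, or -0.43 without 0 hpa replicate 3). The hyaluronan synthase has2 (-1.26 ± 0.14), its receptor cd44 (-2.13 ± 0.15) and the hyaluronan-degrading cemip (-2.19 ± 0.088) fell, and the chondroitin sulphotransferase chst11 (2.56 ± 0.15) and the lectican bcan (1.48 ± 0.12) rose. For the fibroblast and fin mesenchyme list 19 of 21 fell and the other 2 did not pass (median -1.42). Its regulators prrx1 (-2.91 ± 0.27) and twist1 (-2.35 ± 0.12) and the growth factor receptor pdgfra (-2.67 ± 0.19) fell by 4-fold or more.

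Excitability and ion transport genes were mostly lower. Of 49 tested voltage-gated ion channel genes 29 fell and 4 rose (median -0.87). The muscle channels cacna1s (-3.89 ± 0.26) and scn4a (-3.75 ± 0.28) were among the largest falls, with the muscle marker sums as given above, and kcnf1 rose by 0.67 ± 0.14. Of 40 sodium pump, aquaporin and gap junction genes 28 fell and 5 rose (median -0.69, and 3 rose without 24 hpa replicate 3). The connexin gjb1 had 42.2, 44.2 and 54.2 CPM at 0 hpa and 149, 172 and 162 CPM at 24 hpa (1.78 ± 0.13). The water channel aqp1 (-3.11 ± 0.17) fell. Among tubulins 8 of 17 rose and 4 fell, with tubb6 at 2.04 ± 0.12 and tubb1, the platelet isotype of mammals, at -4.48 ± 0.48. Of 56 actin regulators 27 rose and 14 fell (median 0.16). Lcp1 (1.45 ± 0.091), the bundling protein of leukocytes, and the severing protein gsn (1.08 ± 0.063) rose, and the muscle cofilin cfl2 (-3.59 ± 0.2) and fscn1 (-1.04 ± 0.12) fell.

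Defence and oxidant genes rose more often than they fell. Of 80 genes of the tumour necrosis factor, interleukin and chemokine systems 49 rose, 33 of them by 2-fold or more, and 7 fell (median 0.72). The receptor osmr had 30.5, 26.5 and 25.5 CPM at 0 hpa and 145, 144 and 149 CPM at 24 hpa (2.41 ± 0.084), il1r1 rose by 2.41 ± 0.14 and the TWEAK receptor tnfrsf12a by 2.37 ± 0.14, while the chemokine receptor cxcr4 fell (log2 ratio -0.79 ± 0.13). Of 18 NADPH oxidase and peroxidase genes 11 rose and 3 fell (median 1.77). The oxidase activator noxa1 had 17.8, 19.5 and 17.1 CPM at 0 hpa and 72, 68.6 and 66.8 CPM at 24 hpa (1.93 ± 0.073). Nox1 (2.11 ± 0.25) and the phagocyte oxidase subunits cyba (1.78 ± 0.11) and cybb (1.76 ± 0.13) rose, nox4 fell (log2 ratio -1.55 ± 0.2), and the dual oxidases duox1 (0.16 ± 0.13) and duox2 (-0.058 ± 0.078) did not pass. Of 32 interferon response genes 21 rose and 1 fell (median 0.99), and 2 or 3 fell without 0 hpa replicate 3 or 24 hpa replicate 3. The regulators irf7 (2.16 ± 0.26) and irf1 (1.83 ± 0.2), the peptide transporter tap2 (1.90 ± 0.25) and the RNA sensor ifih1 (1.17 ± 0.12) rose. Of 42 caspase and Bcl2 family genes 16 rose and 8 fell (38.1% and 19.05%, against 32.2% and 30.8% of all models), with a median of 0.15. The transcription factor tp73 rose by 1.71 ± 0.11, and cytochrome c, cycs, fell (log2 ratio -0.57 ± 0.069). The myeloid marker sum was higher at 24 hpa, as given above, and its part in these lists was not tested.

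DNA replication genes fell more often than they rose, while the list of cyclins, inhibitors and growth arrest stayed near the shares of all models. Of 58 DNA replication and origin licensing genes 31 fell and 5 rose (median -0.34). The helicase subunit mcm2 had 118, 104 and 101 CPM at 0 hpa and 52.6, 57 and 57.7 CPM at 24 hpa (-0.95 ± 0.15), and the loading factor cdc6 (-1.06 ± 0.15), the polymerase pole (-1.14 ± 0.15) and cyclin ccne2 (-1.53 ± 0.15) fell. The growth-arrest gene gadd45g had 21.9, 18.4 and 21.8 CPM at 0 hpa and 124, 134 and 118 CPM at 24 hpa (2.60 ± 0.086), gadd45a rose by 1.15 ± 0.14 and the cyclin-dependent kinase inhibitor cdkn2b by 2.24 ± 0.17, and the activator e2f1 fell (log2 ratio -1.72 ± 0.17). Over the list of cyclins, inhibitors and growth arrest 14 of 37 rose and 12 fell. These are 37.8% and 32.4%, against 32.2% and 30.8% of all models. The median was 0.0012, and its sign changed with the processing.

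Transcription factor families held strong rises in single members. Of 24 Ets and Runx genes 14 rose and 6 fell (median 0.50). Runx1 had 5.03, 3.71 and 3.23 CPM at 0 hpa and 26, 21.8 and 28.8 CPM at 24 hpa (2.68 ± 0.18), ets2 rose by 2.08 ± 0.055 and the epithelial factor ehf by 1.59 ± 0.15, while the endothelial factors fli1 (-1.88 ± 0.13) and erg (-2.09 ± 0.18) fell beside the endothelial markers. Of 17 Sox genes 4 rose, or 2 without 0 hpa replicate 1 or 3 or 24 hpa replicate 2, and 6 fell. With all libraries 23.5% were higher and 35.3% lower, against 32.2% and 30.8% of all models. Sox11 had 24.6, 26.6 and 24.5 CPM at 0 hpa and 138, 132 and 123 CPM at 24 hpa (2.37 ± 0.11) and sox4 rose by 1.50 ± 0.089. Of 35 Fox genes 17 fell and 5 rose (median -0.30, or -0.49 and -0.52 without 0 hpa replicate 1 or 24 hpa replicate 3), and foxq1 had the largest rise, with 12.9, 13.9 and 13 CPM at 0 hpa and 125, 112 and 126 CPM at 24 hpa (3.18 ± 0.11).

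Of 39 homeobox and twist genes of mesenchyme, ectoderm and limbs 22 fell and 10 rose (median -0.51). Of 6 distal-less genes 5 rose, with dlx5 at 2.05 ± 0.084, dlx4 at 1.88 ± 0.093, dlx6 at 1.41 ± 0.099, dlx3 at 0.98 ± 0.069 and dlx2 at 0.74 ± 0.13. Dlx5 had 45.9, 48.8 and 51.8 CPM at 0 hpa and 196, 210.4 and 198 CPM at 24 hpa. The homeobox genes meis3 (-1.73 ± 0.15), irx3 (-2.04 ± 0.17) and irx4 (-2.09 ± 0.16) fell. In the clock list 6 of 25 rose and 11 fell (median -0.11). The repressor bhlhe40 had 18.6, 15.2 and 19.7 CPM at 0 hpa and 98.6, 105 and 103 CPM at 24 hpa (2.53 ± 0.11), and nfil3 rose by 1.68 ± 0.1 while rora fell (log2 ratio -1.70 ± 0.16). Libraries were not labelled with the hour of day. Among hormone-responsive genes the metallothionein mt4 (2.85 ± 0.19) and tsc22d3 (1.50 ± 0.1) rose and the thyroid hormone activating deiodinase dio2 fell from 75.2 ± 2.51 to 8.12 ± 1.05 CPM (-3.20 ± 0.12).

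**Figure D5:**
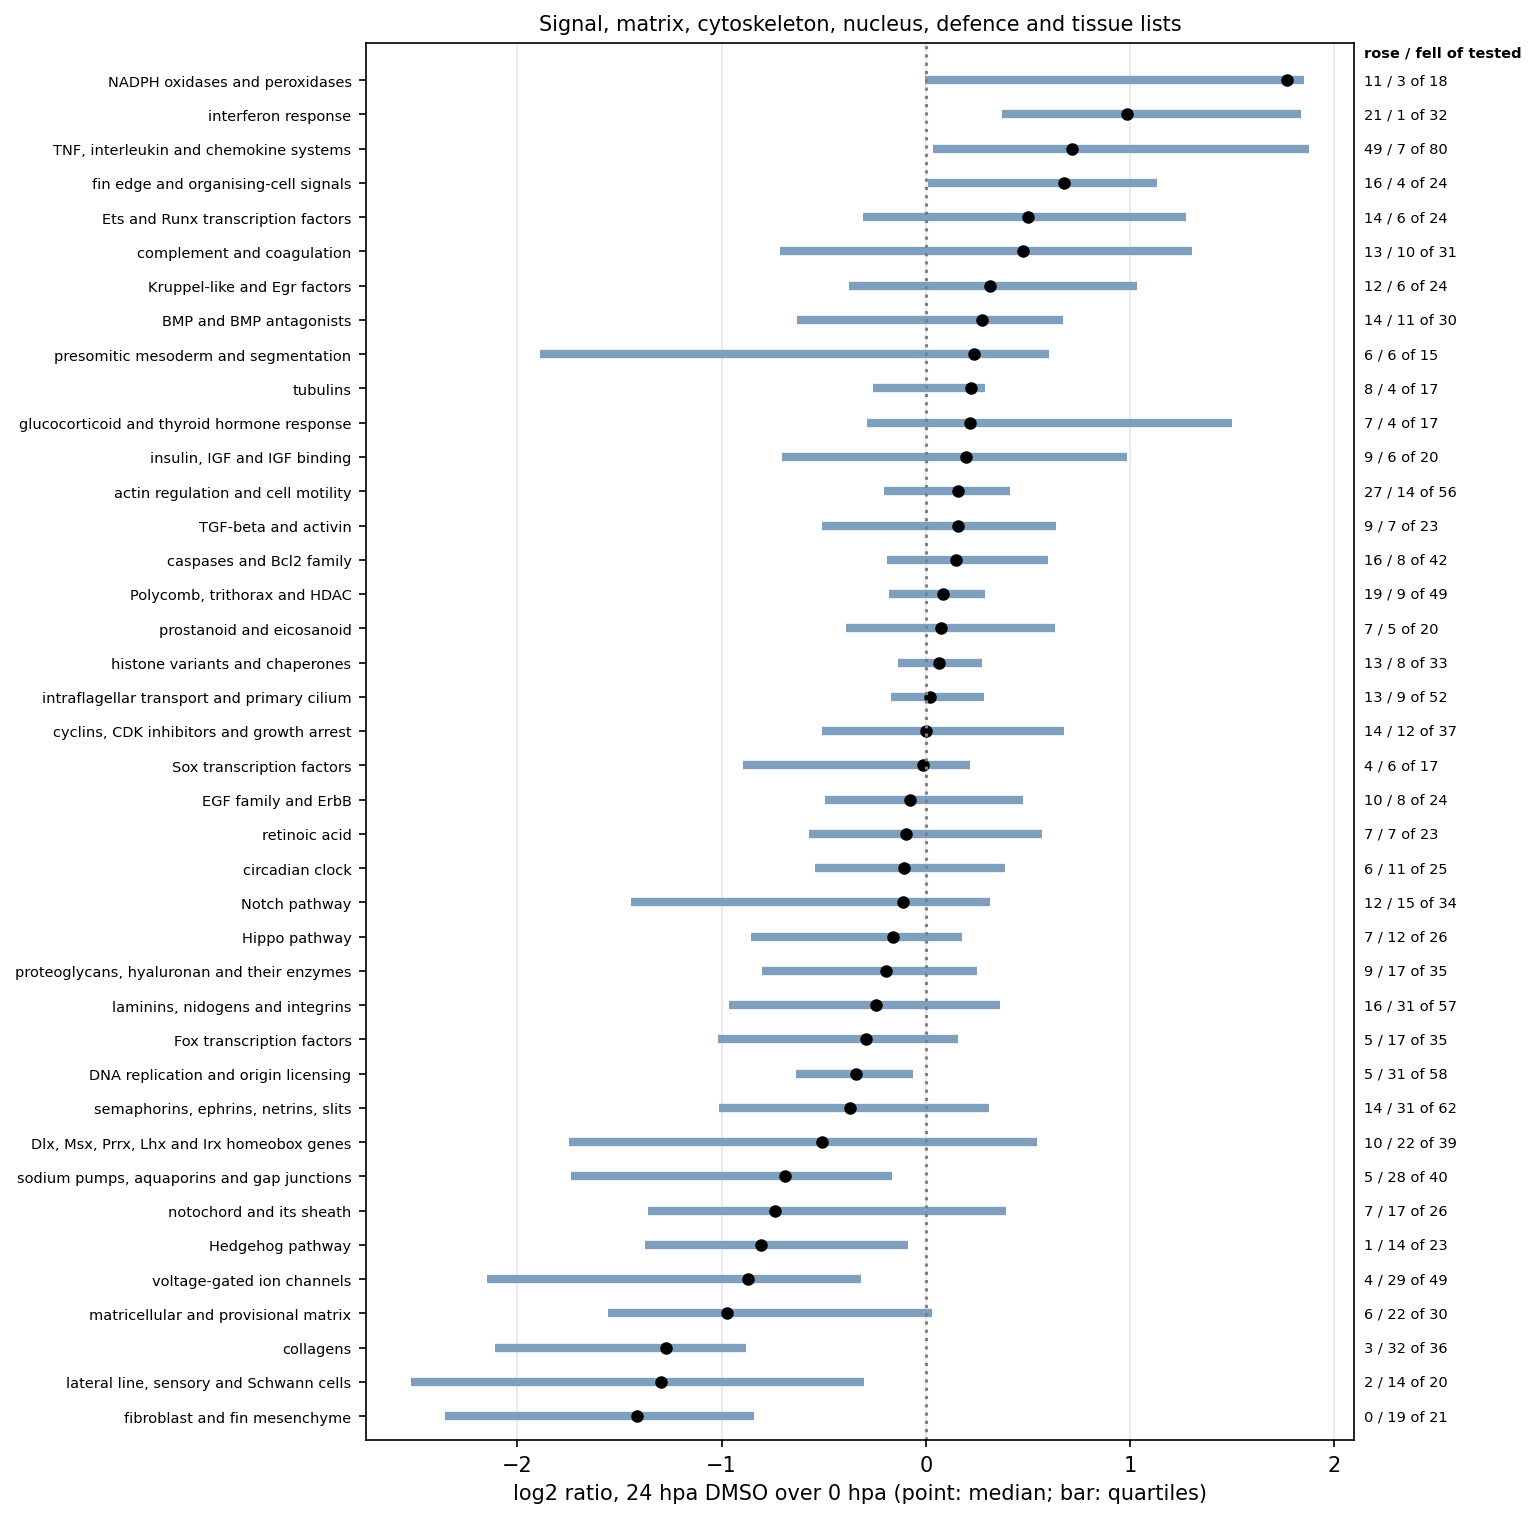
Median log2 ratio (24 hpa over 0 hpa) of the tested members of each list of signal, matrix, cytoskeleton, nucleus, defence and tissue genes (points) with the lower and upper quartile (bars), and the numbers of members that rose and fell at the right. The NADPH oxidase and interferon lists have the highest medians and the fibroblast, sensory and collagen lists the lowest.

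Axial tissue lists were mixed. Of 26 notochord and sheath genes 17 fell and 7 rose (median -0.74). Sheath genes that fell included the collagens col2a1 (-1.29 ± 0.076) and col9a2 (-1.65 ± 0.13) and chondromodulin cnmd (-2.13 ± 0.16). The early notochord genes not (6.35 ± 0.34) and tbxt (0.50 ± 0.17) rose. Of 6 notochord markers, matrix genes among them, 4 rose and 2 fell. Their sum was 4047 to 4293 CPM at 0 hpa and 1762 to 1798 CPM at 24 hpa. For tbxt the adjusted p was 0.0933 without 0 hpa replicate 1 and 0.0922 without 24 hpa replicate 1. The not gene had 0.0636, 0.159 and 0.183 CPM at 0 hpa and 12.6, 12.3 and 10.3 CPM at 24 hpa. Of 15 presomitic and segmentation genes 6 rose and 6 fell (median 0.24, or 0.079 without 0 hpa replicate 3). The posterior homeobox genes cdx2 (2.20 ± 0.17) and cdx4 (1.92 ± 0.23) rose, and the mesoderm gene meox2 (-2.18 ± 0.22) fell. Of 20 lateral line, sensory and Schwann cell genes 14 fell and 2 rose (median -1.30), with the myelin gene pmp22 at -2.27 ± 0.078 and the neuregulin receptor erbb3 at 0.85 ± 0.088.

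The compound-treated groups at 24 hpa give the levels of these genes under other conditions, and they share the 0 hpa group with this comparison. Krt12.2, at 13108 ± 1098 CPM with DMSO, had a mean of 5164 ± 494 with 2ME, 2678 ± 883 with echinomycin and 2799 ± 150.0 with IWR-1. Stc1, at 49.5 ± 13.9 CPM with DMSO, had 35.7 ± 3.75 with 2ME, 5.07 ± 1.29 with echinomycin and 11.9 ± 1.15 with IWR-1. Bambi, at 291 ± 13.3 CPM with DMSO, had 260.3 ± 29.1 with 2ME, 84.4 ± 4.62 with echinomycin and 106 ± 5.65 with IWR-1. Sox11, at 131 ± 7.21 CPM with DMSO, had 113 ± 1.09 with 2ME, 114 ± 5.4 with echinomycin and 116 ± 23.6 with IWR-1. Thus each of these genes, sox11 included, had a lower mean with each of the 3 compounds than with DMSO. The sox11 means lay between 113 and 116 CPM, and no test of these differences was made here.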

How the data were processed

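Samples were grouped by their titles. Trimming by the authors used Trim Galore 0.6.5, followed by kallisto and edgeR, per the submitters' processing notes, which give no version for the latter pair. The deposited estimated counts (kallisto, per the file headers) cover 34192 gene models, and 31.3% of those above 0 lay over 1e-06 away from a whole number. After rounding, edgeR 4.0.16 (R 4.3.3) was run on all 15 libraries with 1 coefficient per group, TMM factors, filterByExpr (minimum count 10, total 15), the quasi-likelihood F test and Benjamini-Hochberg adjustment. The common biological coefficient of variation was 0.0936, with 10 residual degrees of freedom. CPM here are estimated counts relative to the TMM-scaled library total. The deposited TPM, scaled by the authors per the file headers to the same sum in each library, gave levels between genes. The deposited effective length in bases, per the file headers, served as an offset in 1 alternative. The deposited CPM table of the authors, with 15892 models, entered the limma 3.58.1 alternative only. DESeq2 1.42.0 was another.

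The 75 gene lists, with 1709 of 1860 symbols found (51 by a synonym of the UCB_Xtro_10.0 gene table, before false matches were removed after their names were seen), and the members of the comparison were chosen with earlier results of these data known. Genes named are the largest rises, falls, gains and losses and, per list, the 4 largest rises and falls of at least 5 CPM and the 2 most abundant, in a selection by role; some list members were added for their role after their values were seen. On simulated counts with a coefficient of variation of 0.1 in this comparison, 43 of 50 models raised 2-fold, 32 of 48 raised 1.5-fold, 23 of 48 lowered to 0.7-fold and 37 of 47 lowered to 0.5-fold were called, and 4.26% of all calls were false. There 200 models were changed and 18474 tested, with the same coefficient of variation for all, whereas 63.0% of the real models were called. These shares need not hold for the real comparison. Drawings were made with Python 3.11.15 and matplotlib 3.10.9. No sequence is given, because no table of sequences was used here. Some members of the lists are counted but not reported by name here.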

Additional observations from a re-analysis of the deposited data

How the results depend on the processing

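The count of 11854 called models (6056 higher, 5798 lower) stayed within 1.5 times under RLE factors (5785 and 6006), upper-quartile factors (5136 and 6595), no scaling factor, both other filters on low counts, DESeq2, the effective length offset, only the 6 libraries and limma on the deposited CPM (10234 of 15322 matched models). Upper-quartile factors moved the median of all models by -0.092. Against a threshold of 2-fold, 2568 models passed, 933 higher and 1635 lower, since that alternative asks for a larger change, and 141 of the 350 genes valued in the text lost their call. Without 1 library at a time the count was 10862 to 11401, with 5390 to 5598 higher and 5472 to 5803 lower.

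The 2 keratins and the proton pump subunit that did not pass changed sign, and the cause was not tested. Krt7 was at -0.017 with RLE factors and with DESeq2, -0.081 with upper-quartile factors, -0.011 with the length offset, -0.0056 with only the 6 libraries and -0.0705 to 0.0949 without 1 library at a time. Krt12.5 was at -0.0005 with RLE factors and with DESeq2, -0.064 with upper-quartile factors and -0.052 to 0.11 without 1 library. Atp6v0c was at -0.0037 with RLE factors and with DESeq2, -0.0665 with upper-quartile factors and -0.0252 to 0.0359 without 1 library. Of 75 list medians, 63 kept their sign in all 17 alternatives. The serpin median of 0.47 was 0 with no filter, and the other 11 medians that changed sign lay between -0.11 and 0.086, among them Notch (0.058 with limma), retinoic acid (0.29 with limma) and EGF (0.0071 with limma).

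With replicate number as a block 11678 models were called, 5978 higher and 5700 lower, and no gene valued in the text changed its call. Deviations of same-numbered libraries correlated at -0.0469, -0.134 and -0.0684 across genes, and those of other pairs at -0.0477 to 0.116. With 3 libraries in each group these values cannot show whether the numbers pair the libraries, and the labels do not say.

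Depth limits low genes: ratios of genes under 1 CPM at 0 hpa rest on few counts.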

Other observations

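Stress, nutrient and complement genes also changed between 0 hpa and 24 hpa. In the ATF4 programme, the transcription response to amino acid shortage and protein folding stress, 17 of 26 genes rose and 4 fell (median log2 ratio 0.27). The glutathione-degrading enzyme chac1 had 39.4, 43.1 and 46.4 CPM at 0 hpa and 154, 149 and 187 CPM at 24 hpa (1.93 ± 0.12). The stress factors cebpb (1.41 ± 0.15) and ddit3 (1.07 ± 0.14) rose too, and the phosphatase psph of serine synthesis fell (log2 ratio -0.52 ± 0.093). Of 41 amino acid transporter models 20 fell and 12 rose (median -0.24), with the cationic and neutral transporters slc7a7 (1.36 ± 0.13) and slc7a8 (1.07 ± 0.11) higher and the creatine transporter slc6a8 (-2.70 ± 0.14) and the glial glutamate transporter slc1a3 (-3.60 ± 0.19) lower. Of 31 complement and coagulation models 13 rose and 10 fell (41.9% and 32.3%, against 32.2% and 30.8% of all models). Complement factor cfb (1.85 ± 0.19) and tissue factor f3 (0.93 ± 0.12) rose, while f13a1 (-0.99 ± 0.12) and c7 (-1.70 ± 0.21) fell.

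Among Kruppel-like and Egr factors, 12 of 24 rose and 6 fell. The epithelial factor klf5 had 23.9, 24.4 and 28.2 CPM at 0 hpa and 64.7, 73.1 and 78.7 CPM at 24 hpa (1.50 ± 0.099), and klf15, a factor of muscle and fasting metabolism, fell (log2 ratio -2.20 ± 0.25). Intraflagellar transport and primary cilium genes had 13 of 52 higher and 9 lower, with ift52 at 0.89 ± 0.079 and ift172 at -0.81 ± 0.19. Of 49 Polycomb, trithorax and deacetylase genes 19 rose and 9 fell (38.8% and 18.4%, against the same shares of all models). Hdac1 was at 0.75 ± 0.052 and the methylcytosine oxidases tet2 and tet3 at -1.37 ± 0.31 and -1.09 ± 0.19.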
